A study of Mus musculus with 17 samples.

Results

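H3K56ac, acetylation of a lysine in the core of histone H3, was compared between Sirt6 KO and WT mouse embryonic stem cells (mESCs) that had been treated with retinoic acid (RA). Peaks of the KO and WT lists that overlapped by 1 bp or more were merged, which gave 2642 regions, of 6400 regions in the 8 acetylation lists of the series merged in the same way. The KO cells lacked Sirt6 and the WT cells carried it; both came from mouse strain 129 and were freed of feeder cells by plating. Both were moved to medium without leukaemia inhibitory factor, exposed for 2 days to all-trans RA (stock of 0.01 M, diluted 10000-fold), and harvested the day after RA was removed. Each genotype had 1 library made with an anti-H3K56ac antibody, so no difference between them has a replicate check and no test is reported. Intervals in brackets are 95% intervals. Those of shares and ratios are exact and hold the error of counting alone. Those of medians come from the ranked values and hold only the spread between regions, and regions are not replicates. The labels name no separate lines, clones or cultures within a genotype, so an effect of Sirt6 loss and a difference between cell lines or preparations cannot be told apart. Untreated KO and WT cells and H3K9ac, acetylation of the histone tail, were used for comparison, again with 1 library per group.

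Sirt6 is a NAD-dependent enzyme that removes acetyl groups from histone H3, H3K9ac and H3K56ac among them. The lysine of H3K56ac lies where DNA enters and leaves the nucleosome, and the mark is found at active promoters and enhancers and, in yeast, on newly assembled chromatin. RA binds nuclear receptors and drives stem cells out of the pluripotent state, mostly towards neural fates. Where Sirt6 sat on chromatin was taken from the list of 14510 Sirt6 peaks in untreated WT cells. Sirt6 binding after RA was not analysed here. The series also holds Sirt6 ChIP libraries of untreated KO cells, which were not used here. Peaks that the antibody may give without Sirt6 were therefore not taken out of the list. All positions are in mouse build mm9, and the genes and sequences at them were not analysed here.

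The 2 libraries were close in depth and in list size. The KO library held 6837952 tags after filtering and 2239 peaks, against 6145525 tags and 2063 peaks for WT. The estimated fragment length, to which tags were extended before they were piled up, was 227 bp in KO and 207 bp in WT. No peak was shorter than that length in either list. The strength of a peak is given here by the pileup, the number of extended tags over its summit, scaled to 1000000 filtered tags of its library (RPM), and by the authors' fold enrichment over the local background. No control library was used for these lists, so the background came from the same library. Where it was taken locally, within 10000 bp, it includes tags of the peak itself. The background implied by the fold had a floor of 0.833 tags in KO and 0.682 in WT. The lower quartiles of the KO-only and WT-only regions lay at these floors, so there it is not a value of the surroundings. The pileup cannot exceed 454 in KO and 414 in WT, since only 1 tag per position and strand was kept. It reached that ceiling at 1 peak in each list, and 19 KO and 18 WT peaks lay at or above the middle of the scale.

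Most regions were called in both genotypes, and those called in a single list were weak. There were 591 KO-only regions, or 22.4% of all (20.8% to 24.01%), 1646 regions called in both, or 62.3% (60.4% to 64.2%), and 405 WT-only regions, or 15.3% (14.0% to 16.8%). Shared regions took in 73.6% of the KO peaks and 80.4% of the WT peaks. KO-only regions outnumbered WT-only regions by a ratio of 1.46 (1.28 to 1.66). That excess follows from the longer KO list, since shared regions took in nearly equal numbers of KO and WT peaks (1648 and 1658). With the lists cut to equal length the ratio was 1.02 (0.895 to 1.17), as the cut itself makes nearly certain. For comparison, 65.7% of the H3K9ac regions after RA and 38.0% of the H3K56ac regions in untreated cells were called in both genotypes. KO-only regions made up 24.7% and 23.9% in these 2 comparisons, and WT-only regions 9.53% and 38.1%.

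Single-list regions lay at the weak end of their own list. KO-only regions had a median pileup of 15, or 2.19 RPM, and a median fold enrichment of 8.19 (quartiles 7.09 and 9.28). Regions called in both had a median KO pileup of 28, or 4.09 RPM, and a median KO fold enrichment of 12.99. WT-only regions had a median pileup of 14, or 2.28 RPM, and a median fold enrichment of 8.32 (quartiles 7.51 and 9.51). In the WT list the shared regions had a median pileup of 26, or 4.23 RPM, and a median fold enrichment of 12.9. Only 18 of the 591 KO-only regions reached the KO median of the shared regions in fold enrichment, and 8 of the 405 WT-only regions reached the WT median. The peak had the shortest length its list allows in 25.5% of the KO-only and 29.4% of the WT-only regions, against 4.56% (KO list) and 5.77% (WT list) of the shared regions.

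**Figure D1:**
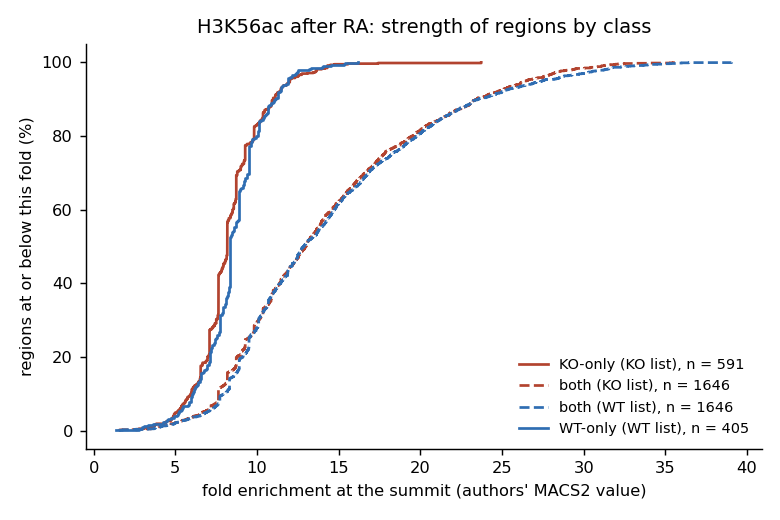
Cumulative share of regions (percent, vertical axis) by the authors' fold enrichment at the summit (horizontal axis), for KO-only regions, regions called in both lists (KO and WT values) and WT-only regions. The KO-only and WT-only curves, with medians of 8.19 and 8.32, lie well left of the curves of the shared regions, with medians of 12.99 and 12.9.

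Whether a peak was found in the other genotype followed its strength closely. Of the KO peaks' regions with a fold enrichment of 5 to 7.5, 37.2% were also called in WT (86 of 231). The share was 53.4% between 7.5 and 10, 84.8% between 10 and 15, and 99.4% between 15 and 20 (318 of 320). At 20 or more it was 99.7% (302 of 303). Below 5 the order broke off, with 55.6% of the KO regions (35 of 63) and 67.3% of the WT regions (33 of 49) called in both. Regions of the WT list ran through 47.5%, 61.0%, 87.7% and 99.1% over the same ranges, and all 319 WT regions at 20 or more were also called in KO. Single-list regions were seldom the shifted edge of a peak in the other genotype: 12 of the 591 KO-only regions lay within 1000 bp of a WT peak, and 5 of the 405 WT-only regions lay within 1000 bp of a KO peak. The median distance to the nearest peak of the other list was 324668 bp for KO-only and 341033 bp for WT-only regions.

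A few strong regions were exceptions. Among KO-only regions the highest fold enrichment, 23.7, was that of chr15:62601918-62602215, which had a KO pileup of 60 tags, or 8.77 RPM. It overlapped a Sirt6 peak with a fold enrichment of 13.02, and among the other 6 acetylation lists it was called only in the untreated KO lists, at 13.8 RPM for H3K56ac and 5.26 RPM for H3K9ac. The regions at chrX:7955880-7956179 (fold enrichment 17.4) and chr4:113276759-113277105 (14.7) followed the same pattern of calls, with untreated KO lists for both marks and no call in a WT list, but held no Sirt6 peak. The region at chr10:50849941-50850219 (14.5) was called elsewhere only in untreated KO H3K56ac. In contrast, the KO-only region at chr7:12942199-12942521 (15.6) was called in all 6 other lists, WT included. So 4 of the 5 strongest KO-only regions had no peak in any WT acetylation list. The matching share over all KO-only regions is not given here, so this count is not read as a trait of the class. Over all 591 KO-only regions, 36.5% had a call in WT H3K9ac after RA. In untreated WT cells, 35.2% had a call for H3K56ac and 32.8% for H3K9ac.

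The 5 strongest WT-only regions differed from the 5 strongest KO-only regions in their calls in the other lists. The first, at chr4:23996393-23996625, had a WT pileup of 31 tags (5.04 RPM) and a fold enrichment of 16.2, and was called in 5 other lists, with untreated KO H3K56ac as the exception. Those at chr1:142522860-142523146 (15.4), chr7:27835712-27835942 (15.3) and chr14:15262743-15263027 (14.5) were called in all 6 other lists, KO H3K9ac after RA among them. The whole classes were alike in this: 40 of 591 KO-only regions (6.77%) and 27 of 405 WT-only regions (6.67%) were called in all 6 other lists. The region at chr19:44516563-44516786 (14.0) was called in 4 other lists and, like the first, not in untreated KO H3K56ac. None of these 5 regions overlapped a Sirt6 peak, which is near the share for such regions. Among all WT-only regions, 2 of 78 with a fold enrichment of 10 to 15 did, and 0 of 3 above that. The WT-only region with the highest pileup, 370 tags, had the lowest fold enrichment of its class, 1.39.

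At the regions called in both lists, H3K56ac was nearly level between KO and WT, and the spread was about that of tag counting. The median log2 ratio of KO over WT pileup in RPM was -0.048 (-0.067 to -0.034), with quartiles of -0.29 and 0.21, and the ratio lay above 0 in 731 regions and below 0 in 915. The standard deviation over the 1646 regions was 0.409, beside a median counting standard deviation of 0.394 on the same log2 scale. The pileup was at least 1.5-fold higher in KO in 114 regions (6.93% of the shared regions) and at least 1.5-fold lower in 132 (8.02%). The counting interval of the single region's ratio left out 1 in 60 regions that were higher in KO (3.65%) and in 58 that were lower (3.52%). By the authors' fold enrichment, 52 regions were at least 1.5-fold higher in KO (3.16%) and 51 lower (3.1%), and the median log2 ratio was -0.036. The pileup ratios after RA were narrower than those of untreated H3K56ac, where the standard deviation was 0.754 and 28.3% of the shared regions were at least 1.5-fold higher in KO and 12% lower. For H3K9ac after RA the corresponding shares were 2.15% and 6.09%. The sign of the median depends on the scaling: without scaling to depth it was 0.11, and in RPM and per bp of fragment length it was -0.18.

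Although the levels were close on the whole, Sirt6 peaks were concentrated at the regions that were higher in KO. A Sirt6 peak of untreated WT cells overlapped 42 of the 114 regions that were at least 1.5-fold higher in KO, or 36.8% (28.0% to 46.4%). It overlapped 147 of the 1400 regions within 1.5-fold, or 10.5% (8.94% to 12.2%). Of the 132 regions that were at least 1.5-fold lower in KO, only 1 held a Sirt6 peak, or 0.758% (0.0192% to 4.15%). The Sirt6 list came from another library and condition and took no part in forming these groups. By class, Sirt6 peaks lay at 13.2% of the KO-only, 11.5% of the shared and 15.6% of the WT-only regions. This order depended on the weakest peaks: with a −log10 q of at least 10 in the acetylation and Sirt6 lists the shares were 6.05% (3.88% to 8.94%) of the KO-only, 11.1% of the shared and 1.63% (0.531% to 3.76%) of the WT-only regions.

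**Figure D2:**
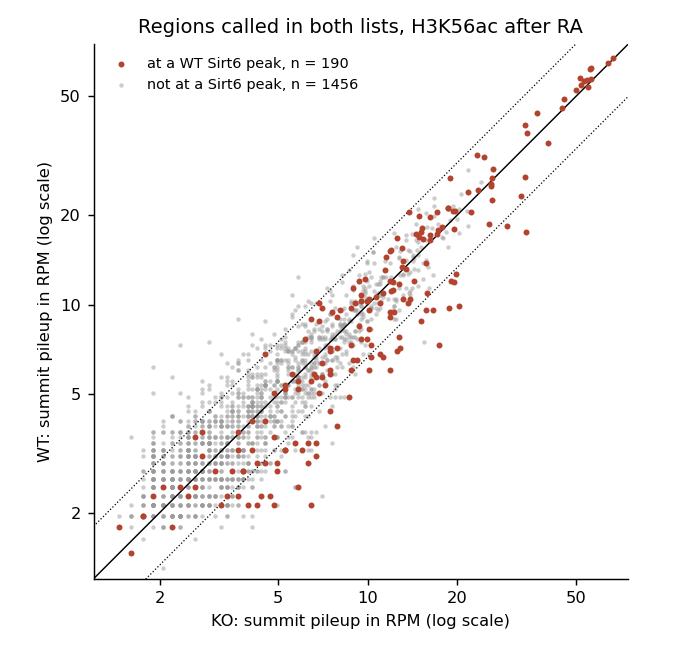
Summit pileup in RPM in KO (horizontal axis) and WT (vertical axis), both on log scales, for the 1646 regions called in both lists; the solid line marks equal values and the dotted lines a 1.5-fold difference. Regions at a WT Sirt6 peak (190, dark points) spread to the KO side of the solid line, and 42 lie past the dotted line on that side against 1 on the WT side.

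The same order of the 3 groups was found with the other measure and in subsets of regions. All of these draw on the same peaks, libraries and Sirt6 list, and fold enrichment is computed from the pileup, so they are not independent checks. With groups formed by fold enrichment, Sirt6 peaks lay at 16 of 52 regions higher in KO (30.8%), at 11.3% of those within 1.5-fold and at 0 of 51 lower in KO. After centring the ratios on their median the shares were 31.4% (44 of 140) in the higher group and 0 of 108 in the lower group. On autosomes alone they were 34.7%, 8.98% and 0 of 107 from the higher to the lower group. Outside the regions called in all 8 acetylation lists they were 34.0% (18 of 53), 6.73% and 0 of 63. Where both peaks had a −log10 q of at least 10, they were 43.0%, 11.2% and 0 of 91. Without scaling to depth, 56 of 214 higher regions held a Sirt6 peak (26.2%). The Sirt6 share stood out mainly at the upper end of the ratio: with the shared regions ranked by ratio and cut into 10 parts, it was 1.83% in the lowest part, between 7.93% and 14.0% in the parts between, and 29.7% in the highest part (49 of 165), where the log2 ratio was 0.47 or more.

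Sirt6 overlap was most frequent where acetylation was strongest. Ranked by the mean of KO and WT pileup in RPM and cut into 4 parts, the part with the highest pileup held 21 regions that were at least 1.5-fold higher in KO, and 19 of these overlapped a Sirt6 peak (90.5%; 69.6% to 98.8%). In the same part Sirt6 peaks lay at 105 of 376 regions within 1.5-fold (27.9%) and at 0 of 15 lower in KO. In the 2 parts between, 13 of 39 and 9 of 31 higher regions held a Sirt6 peak, and in the part with the lowest pileup 1 of 23 did. The difference between the groups was therefore present in each part but the weakest, where single regions carry few tags.

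Seen from Sirt6, the H3K56ac ratio was higher in KO at strong Sirt6 peaks and level at weak ones. The 190 shared regions at a Sirt6 peak had a median log2 ratio of KO over WT of 0.11 (0.0095 to 0.17). Of these, 109 were above 0, and by fold enrichment their median log2 ratio was 0.013. They were then split at the median Sirt6 fold enrichment, a split chosen after seeing the data. The 95 regions above it had a median of 7.02 RPM in KO and 5.53 in WT. Their median log2 ratio of KO over WT was 0.45 (0.31 to 0.62), or 1.36-fold, with 79 of 95 above 0 and 38 at least 1.5-fold higher in KO against 0 lower. The 95 regions up to the median had 13.7 RPM in KO and 15.3 in WT, with a median log2 ratio of -0.064 (-0.11 to -0.028) and 30 of 95 above 0. The 1456 shared regions with no Sirt6 peak had a median log2 ratio of -0.062 (-0.084 to -0.047), with 622 above 0. The median of the strong Sirt6 group thus exceeded that of regions without Sirt6 by 0.51 on the log2 scale, a difference that no scaling of whole libraries moves. By fold enrichment the strong Sirt6 group had a smaller median log2 ratio, 0.16. Its median implied local background, not scaled to depth or fragment length, was 1.78 tags in KO and 1.12 in WT. How far this background holds tags of the peaks themselves was not tested.

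**Figure D3:**
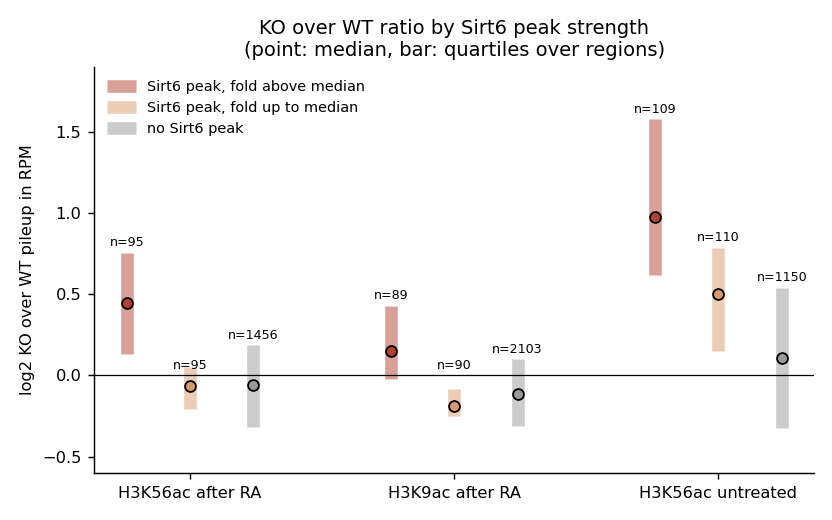
Log2 ratio of KO over WT summit pileup in RPM (vertical axis) in regions called in both genotypes, by Sirt6 peak strength and for 3 comparisons; points are medians, bars run from the lower to the upper quartile over regions and n is the number of regions. After RA the H3K56ac median is 0.45 at strong Sirt6 peaks and -0.064 and -0.062 in the other groups; in untreated cells it is 0.98 at strong Sirt6 peaks.

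H3K9ac after RA and H3K56ac before RA showed the same order of Sirt6 shares over the 3 groups, with other sizes. For H3K9ac after RA, Sirt6 peaks lay at 10 of 49 regions that were higher in KO (20.4%), at 8.02% of those within 1.5-fold and at 0.719% of those lower in KO. The median log2 ratio at strong Sirt6 peaks was 0.15, with 61 of 89 regions above 0. It was -0.19 at the weaker ones, which was below the -0.11 of regions without a Sirt6 peak. For H3K56ac in untreated cells, Sirt6 peaks lay at 129 of 387 higher regions (33.3%), at 10.8% of those within 1.5-fold and at 1.22% of the lower ones. There the median log2 ratio was 0.98 at strong Sirt6 peaks, with 104 of 109 above 0, 0.50 at the weaker ones and 0.11 without a Sirt6 peak. By fold enrichment these untreated medians were much lower though in the same order, at 0.065 at strong Sirt6 peaks, -0.055 at the weaker ones and -0.27 without a Sirt6 peak. In pileup, strong Sirt6 peaks thus had a median 0.51 above regions without Sirt6 for H3K56ac after RA, 0.27 for H3K9ac after RA and 0.87 for untreated H3K56ac. The difference between these comparisons was not tested, each genotype being 1 library per mark and condition, and the same Sirt6 list served for all 3.

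**Figure D4:**
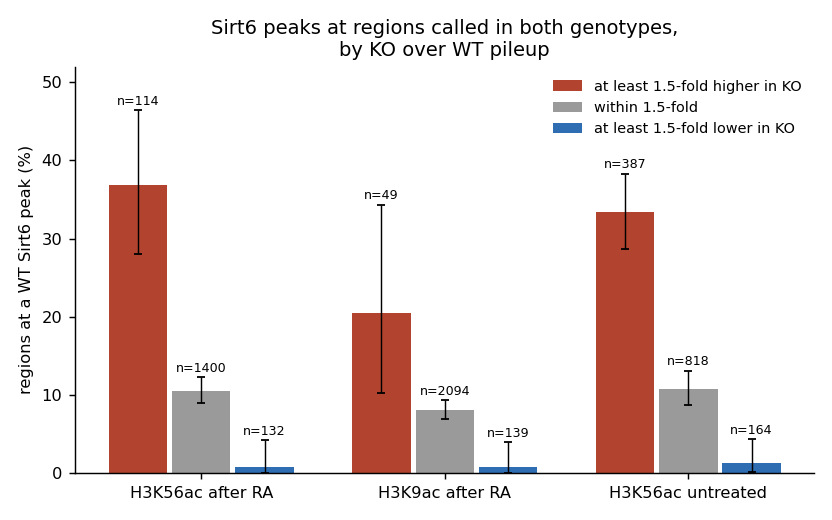
Share of regions at a WT Sirt6 peak (percent, vertical axis) among regions called in both genotypes, grouped by KO over WT pileup in RPM, for 3 comparisons; error bars are exact 95% counting intervals and n is the number of regions. For H3K56ac after RA the share is 36.8% where KO is at least 1.5-fold higher, 10.5% within 1.5-fold and 0.758% where KO is at least 1.5-fold lower.

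Single regions with large ratios, above the 1.36-fold median of the strong Sirt6 group, serve as examples. The shared region at chr17:69672574-69673018 had a pileup of 119 in KO and 45 in WT, or 17.4 and 7.32 RPM, a ratio of 2.38 (1.67 to 3.43), and overlapped a Sirt6 peak with a fold enrichment of 13.1. In untreated cells its H3K56ac was 27.5 RPM in KO and 3.85 in WT. At chr11:45538096-45538502, among the 5 regions with the highest KO fold enrichment, the pileup was 232 in KO and 108 in WT, a ratio of 1.93 (1.53 to 2.45), beside a Sirt6 fold enrichment of 16.3. Its untreated H3K56ac was 48.6 RPM in KO and 9.37 in WT, while H3K9ac after RA was 11.7 in KO and 9.85 in WT. At both regions the KO excess in RPM was therefore larger before RA than after it, in these libraries. The fragment lengths also differed more before RA, with 224 bp in KO and 175 bp in WT for H3K56ac, and their part was not tested.

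The 5 largest ratios rested on 13 to 15 WT tags, except that of the region on chromosome 17 given above. The region at chr3:57088564-57088898 had a pileup of 48 in KO and 14 in WT, a ratio of 3.08 (1.67 to 6.05), and held no Sirt6 peak. Next came chrX:15170259-15170582 with 44 in KO and 13 in WT (3.04), chr19:31798203-31798512 with 40 and 15 (2.40), the region on chromosome 17, and chr5:37051917-37052790 with 34 in KO and 13 in WT (2.35). The regions on chromosomes X, 19 and 17 overlapped Sirt6 peaks. The Sirt6 peak on chromosome 19 had a fold enrichment of 24.2.

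In the 5 shared regions with the highest KO fold enrichment, the ratios ran from 0.842 to 1.93, beside a median of 0.967 over all shared regions. They were not picked by ratio, so they are not set against the 5 largest ratios. The part of the pileup ceiling in these values was not tested. At chr13:86453006-86453381, the shared region with the highest fold enrichment, the pileup was 253 in KO and 270 in WT, or 37.0 and 43.9 RPM, and the ratio of 0.842 had an interval that held 1 (0.707 to 1.003). At chrX:60379570-60379965 it was 275 in KO and 214 in WT (ratio 1.15), at chr12:50352099-50352459 231 and 165 (1.26), and at chr15:67742136-67742515 175 and 115 (1.37). All 5 of the strongest regions, that on chromosome 11 included, were called in all 8 lists and overlapped Sirt6 peaks.

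The 5 regions with the lowest ratios were chr16:82705239-82705545 with 13 tags in KO and 38 in WT (ratio 0.31, 0.15 to 0.59), chr15:91432093-91432351 with 16 and 45 (0.32), chr7:64897852-64898123 with 13 and 31 (0.38), chr2:114390434-114390705 with 15 and 35 (0.39), and chrY:2640365-2640625 with 20 and 46 (0.39). None overlapped a Sirt6 peak, as 1456 of the 1646 shared regions did not. Those on chromosomes 16, 15, 7 and Y had no KO call for untreated H3K56ac but a WT call, at 4.75 to 10.1 RPM, while both genotypes had them in the H3K9ac lists after RA. The region on chromosome 2 was called for untreated H3K56ac in both, at 4.15 RPM in KO and 2.44 in WT.

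In single-list regions Sirt6 peaks gathered among the weakest calls. Among KO-only regions with a fold enrichment under 7.5, 53 of 173 overlapped a Sirt6 peak, or 30.6% (23.9% to 38.1%), against 4.40% between 7.5 and 10 and 10.3% between 10 and 15. Among WT-only regions 56 of 101 under 7.5 did, or 55.4% (45.2% to 65.3%), against 2.24% between 7.5 and 10 and 2.56% between 10 and 15. The Sirt6 peaks at the weak regions were not weak themselves, with a median fold enrichment of 12.1 at the KO-only and 12.2 at the WT-only regions. Of the 53 weak KO-only regions at Sirt6 peaks, 32 were called in untreated KO H3K9ac and 1 in untreated WT H3K9ac. Of the 56 weak WT-only regions at Sirt6 peaks, 31 were called in untreated KO H3K9ac and 3 in untreated WT H3K9ac. Over whole classes these shares were 50.1% and 32.8% (KO-only), and 44.7% and 48.6% (WT-only). The gap was smaller in the other lists. For untreated H3K56ac the weak KO-only regions at Sirt6 peaks had 15 KO and 9 WT calls, and the WT-only ones 13 and 13. For H3K9ac after RA the calls were 9 and 2, and 9 and 4. Untreated KO H3K9ac was also the longest acetylation list, with 3593 peaks. The median implied local background was 1.46 tags at these KO-only regions. At the other weak KO-only regions it was 0.833, the floor of the KO list. It was 1.14 at these WT-only regions, against 0.955 at the other weak WT-only regions. The part of the background in the result was not tested. Weak shared regions also held Sirt6 peaks often, at 36.4% of those with a KO fold enrichment under 7.5, where the median background was 12.3 tags with a Sirt6 peak and 1.59 without.

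Most regions of every class recurred in other acetylation lists. Of the KO-only regions, 480 (81.2%) were called in at least 1 of the other 6 lists and 111 in none. Of the shared regions 995 (60.4%) were called in all 8 lists. Of the WT-only regions, 355 (87.7%) were called in at least 1 other list and 50 in none. KO-only regions were called more often in KO than in WT for H3K9ac after RA (52.1% in KO, 36.5% in WT) and for untreated H3K9ac (50.1% in KO, 32.8% in WT), while for untreated H3K56ac the shares were 37.2% in KO and 35.2% in WT. WT-only regions had their widest gap in untreated H3K56ac, with a call in KO at 19.3% and in WT at 51.9%. For H3K9ac after RA, by contrast, the WT-only regions were called more often in KO (68.1%) than in WT (56.3%). For untreated H3K9ac they were called at 44.7% in KO and 48.6% in WT. The lists also differed in length, with 3147 KO and 2626 WT peaks for H3K9ac after RA, 2235 KO and 2750 WT peaks for untreated H3K56ac, and 3593 KO and 2789 WT peaks for untreated H3K9ac; the part of list length in these shares was not tested.

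**Figure D5:**
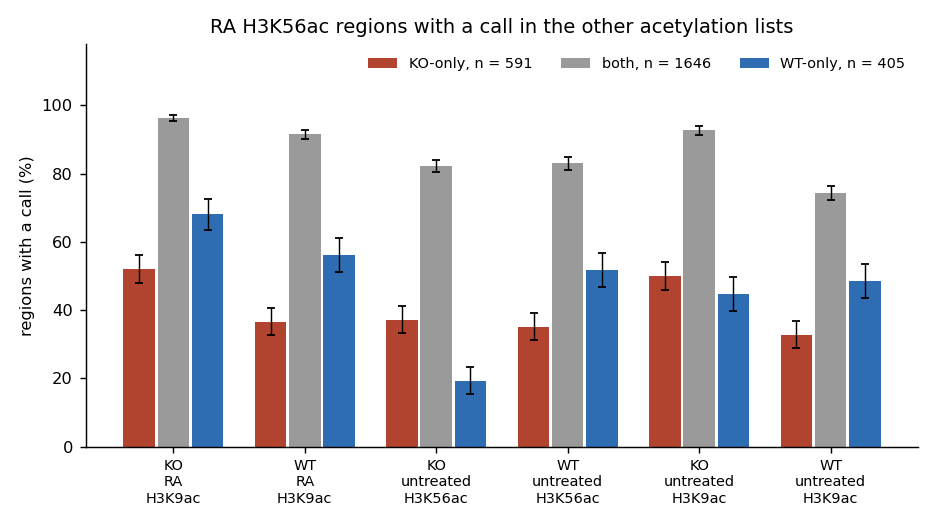
Share of KO-only, shared and WT-only H3K56ac regions after RA (percent, vertical axis) that had a call in each of the other 6 acetylation lists (horizontal axis); error bars are exact 95% counting intervals. KO-only regions had a call in the KO list of H3K9ac after RA at 52.1% and in the WT list at 36.5%, and WT-only regions in untreated KO H3K56ac at 19.3% and in untreated WT H3K56ac at 51.9%.

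Calls of the other mark at the same place are given beside their shares over all regions. Of the 591 KO-only regions, 120 (20.3%) were called for H3K9ac after RA in KO only, 188 in both genotypes, 255 in neither and 28 in WT only. Of the 405 WT-only regions, 20 (4.94%) were called for H3K9ac after RA in WT only, 208 in both genotypes, 109 in neither and 68 in KO only. Over all H3K9ac regions after RA, 24.7% were KO-only and 9.53% WT-only. For untreated H3K56ac, 132 KO-only regions (22.3%) were KO-only again, 120 were WT-only, 88 were called in both genotypes and 251 in neither. Of the WT-only regions, 163 (40.2%) were WT-only again in untreated cells, 31 were KO-only, 47 were called in both and 164 in neither. Over all untreated H3K56ac regions 23.9% were KO-only and 38.1% WT-only. For both marks, the shares over all regions leave out places called in neither genotype, while the shares of the 591 and 405 regions count them. The bases thus differ, and how far a class recurs cannot be read from setting these shares side by side.

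Ratios in shared regions followed the same direction across marks and conditions, loosely. Where H3K56ac after RA was at least 1.5-fold higher in KO, the median log2 ratio of KO over WT was 0.16 for H3K9ac after RA (70 of 97 regions above 0) and 0.97 for untreated H3K56ac (72 of 86). Where it was within 1.5-fold, these medians were -0.080 (499 of 1267) and 0.18 (610 of 997). Where it was at least 1.5-fold lower in KO, they were -0.18 (29 of 125) and -0.32 (28 of 79). Across regions, Pearson's r with the H3K56ac ratio after RA was 0.234 for H3K9ac after RA (n = 1489), 0.351 for untreated H3K56ac (n = 1162) and 0.278 for untreated H3K9ac (n = 1171). These coefficients describe regions within single libraries, and regions are not independent replicates. The labels do not say whether the libraries of both marks came from the same chromatin.

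KO peaks were slightly longer, by about the difference in fragment length, and summits stayed in place. The KO peak was longer in 1376 of the 1646 shared regions and shorter in 264, with a median difference of 28 bp (quartiles 11 and 48). The fragment length differed by 20 bp, and 8 bp was left after it was subtracted. The summits lay a median of 19 bp apart (quartiles 8 and 37), within 50 bp in 1397 regions (84.9%) and within 100 bp in 1585 (96.3%), and the median signed offset of the KO summit was 1 bp. Of the 73 regions with a peak over 500 bp, 23 had summits more than 100 bp apart, against 19 of the 800 regions with peaks of up to 300 bp in both lists.

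The regions whose length differed most included split and unsplit peaks. At chr6:29697908-29699005 a single KO peak of 1098 bp stood against 2 WT peaks, of which the stronger had 228 bp, and the summits lay 691 bp apart. There the pileup in RPM was 7.02 in KO and 6.35 in WT. At chr15:74915998-74917434 a KO peak of 1437 bp stood against 2 WT peaks, of which the stronger had 891 bp, with 18.9 RPM in KO and 19.2 in WT. At chr5:92356932-92357668 it was KO that had 2 peaks, the stronger of 380 bp, against a WT peak of 655 bp. Its pileup was 4.24 RPM in KO and 5.21 RPM in WT. The WT peak was longer by more at a region on unplaced sequence with a single peak in each list, of 503 bp in KO and 835 bp in WT. At chr17:3081868-3082750, also with a single peak in each list, the lengths were 605 bp in KO and 298 bp in WT, and the summits lay 454 bp apart.

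The excess of KO-only regions was spread over the genome. KO-only regions outnumbered WT-only regions on 17 of the 20 chromosomes counted (1 to 19 and X). The share of KO-only regions ran between 15.6% on chromosome 15 and 28.6% on chromosome 5. The median log2 ratio in shared regions was below 0 on 16 of the 20, between -0.15 on chromosome 7 and 0.052 on chromosome 19. Chromosome X held 256 regions, of which 52 were KO-only, 176 shared and 28 WT-only, and 17 regions lay on Y. Another 125 regions lay on unplaced or unassigned sequence, where 29.6% overlapped a Sirt6 peak and the median implied local background was 3.67 tags in KO and 3.75 in WT, against 1.07 and 0.914 on autosomes. The ratio at Sirt6 peaks was near level there: the 33 shared regions at a Sirt6 peak outside chromosomes 1 to 19 and X had a median log2 ratio of 0.030. Stretches of 5 or more regions, each within 10000 bp of the next, took in 52 regions in 9 stretches, 8 of them on unplaced sequence. None of the 114 regions at least 1.5-fold higher in KO, or of the 132 lower ones, lay in these stretches. Leaving the stretches out therefore could not change the Sirt6 shares of these groups, 36.8% and 0.758%.

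Few of these regions overlapped windows where 5-hydroxymethylcytosine, an oxidised form of DNA methylation, differed in untreated cells. There were 2218 windows higher and 1562 lower in KO. The overlap to be had from positions alone was not estimated, so the low counts are not read as a trait of the regions. Windows listed as higher in KO in the authors' deposited table overlapped 1 KO-only region, 0 of the shared regions (upper limit 0.224%) and 2 WT-only regions. Windows listed as lower in KO overlapped 6 KO-only regions, 7 shared regions and 0 WT-only regions (upper limit 0.907%). Of the 7 shared regions, 4 were among the 114 that were at least 1.5-fold higher in KO, 3 among the 1400 within 1.5-fold and 0 among the 132 lower in KO. These 4 lay on chromosomes 14, 19, 7 and 9, and those on chromosomes 19, 7 and 9 overlapped Sirt6 peaks, beside 36.8% of all 114.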

How the data were processed

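H3K56ac and H3K9ac ChIP-seq peak lists, the untreated WT Sirt6 list and the table of 5-hydroxymethylcytosine windows (CMS-IP) were used as deposited, with 1 library in each of the 17 groups taken from the labels. The submitters' processing notes name BWA 0.5.9, Picard (at which step, the sources used here do not say), MACS2 2.0.10 and the build mm9. MACS2 was run on each library with a q cutoff of 0.01, keeping 1 tag per position, per the file headers. The acetylation lists had no control library, per the file headers. The deposited lists give the pileup signal at the summit, −log10 p and −log10 q, and the fold enrichment ratio over local background, all computed by the authors. The authors' table of windows gives a log2 fold change, of which only the sign was used. The number of unused per-sample columns was 0.

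Peaks overlapping by 1 bp were merged. In regions with several peaks of a list the strongest stood for it. Pileups were scaled to 1000000 filtered tags (RPM), of which there were 5782181 to 10250030 in the acetylation libraries. The implied local background is (pileup + 1) / fold − 1, on the assumption that MACS2 adds 1 to both terms of the fold. Shares and ratios carry exact (Clopper-Pearson) 95% intervals, which cover counting error only. Medians carry 95% intervals from order statistics over regions, which cover the spread between regions only. None of them covers variation between libraries. Where a share of 0 is given with an upper limit, that limit is the upper end of the exact interval. Pileups of extended tags were treated as counts. The steps were tested on simulated lists. Regions named are the 5 highest by fold enrichment per class, the 5 highest and 5 lowest by ratio, and the 3 largest shifts in length or summit in each direction. Comparisons, regions and gene lists were chosen with earlier results of these data known; the gene lists were not applied, since gene positions of mm9 were not used here. The alternatives tried were −log10 q limits of 5 and 10, lists of equal length, 50% overlap, peaks joined within 1000 bp, autosomes only, regions outside those called in all 8 lists, other scalings and centring. Scaling per bp of fragment length, leaving out packed stretches, all alternatives for the groups by ratio, and the splits by ratio rank, pileup, fold range and Sirt6 strength were added after seeing the data. Python 3.11.15 was used with pandas 2.3.3, numpy 2.4.6, scipy 1.17.1 and matplotlib 3.10.9.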

Additional observations from a re-analysis of the deposited data

Results flagged for a closer look

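Between RA-treated and untreated cells the genotype difference of H3K56ac had opposite signs in the number of calls and in the pileup, but not in fold enrichment. KO-only regions stood to WT-only regions in a ratio of 1.46 after RA and 0.627 in untreated cells. The KO library held 1.11 times the filtered tags of the WT library after RA and 0.742 times in untreated cells; its part in the result was not tested. The median log2 ratio of KO over WT pileup in RPM in shared regions was -0.048 after RA and 0.20 in untreated cells. The fragment length was 227 bp in KO and 207 bp in WT after RA, and 224 bp in KO and 175 bp in WT in untreated cells. Per bp of fragment length the median was -0.18 after RA and -0.16 in untreated cells, so the sign no longer differed. By the authors' fold enrichment the median log2 ratio was -0.036 after RA and -0.22 in untreated cells. With 1 library per group, the difference between the conditions was not tested.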

How the results depend on the processing

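KO-only regions stood to WT-only regions in a ratio of 1.24 with a −log10 q of at least 10. With lists of equal length it was 1.02, which the equal numbers of peaks bring about by construction. Regions called in both made up 66.7% at the stricter q and 39.5% without the regions called in all 8 lists. The median log2 pileup ratio was 0.11 without scaling and -0.18 per bp of fragment length. At the stricter q the median fold enrichment was 9.28 in KO-only and 9.52 in WT-only regions, 93.4% and 96.1% of them had a call in another list, and chromosome X held 11.7% of the WT-only regions. With lists of equal length KO-only regions had a median fold of 8.59 and 85.7% had another call. Sirt6 overlap of whole classes changed with the weakest calls: at the stricter q in the acetylation and Sirt6 lists it was 6.05% for KO-only and 1.63% for WT-only regions, with equal lists 7.91% for KO-only, and without the regions in all 8 lists 8.29% for shared regions. The length difference was 24 bp, and the summit distance 21 bp, without the regions in all 8 lists, and the length difference 8 bp after subtracting the fragment length. The numbers of regions at least 1.5-fold higher and lower in KO were 214 and 63 without scaling, 64 and 226 per bp of fragment length, and 53 and 63 without the regions in all 8 lists. The cause was not tested. No paired analysis was possible because each group held 1 library. The median shared region had 28 tags at its KO summit and 26 at its WT summit, so a 1.5-fold difference in a single region lies within counting error unless the pileup is high.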
